A study of Mus musculus with 4 samples.

Results

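Bone marrow macrophages of LysM-St18flox mice were compared with those of wild-type mice before any exposure to RANKL, the cytokine that turns such cells into osteoclasts. The comparison holds 15319 genes, those whose probe was well above background on either macrophage array, out of 22910 genes with a named probe. Of these, 14365 were well above background on both arrays, 673 on the LysM-St18flox array alone and 281 on the wild-type array alone. The series has 4 one-colour mouse arrays, 1 for each group. Wild-type and LysM-St18flox macrophages came from marrow cells kept for 4 days in 25 ng/ml M-CSF. Wild-type and LysM-St18flox osteoclasts came from such macrophages that received 50 ng/ml RANKL beside 25 ng/ml M-CSF for 3 further days. All cells grew in RPMI1640 with 10% serum, and 100 ng of total RNA was labelled with Cy3.

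By convention, the name LysM-St18flox denotes an St18 gene flanked by loxP sites, with Cre recombinase made from the lysozyme M locus. That locus is active in monocytes, macrophages and neutrophils, so recombination is expected in myeloid cells and need not reach every cell. The sources used here do not say whether the wild-type mice carried Cre or loxP alleles, nor how many mice of which sex and age were used, nor whether they were pooled. With 1 array for each genotype there is no replicate, no test and no measure of the spread between mice or cultures, so each fold below describes 1 pair of RNA samples. In bulk RNA, fewer cells of a type and less RNA per cell cannot be told apart.

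St18 encodes a zinc finger transcription factor of the Myt1 family, studied mostly in neural and endocrine cells. M-CSF signals through Csf1r and keeps marrow macrophages alive and dividing. Such cultures take up lipid, dead cells and antibody-coated particles, respond to interferon and microbial products, and hold the precursors of osteoclasts.

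A level is given here as log2 of the signal relative to the array's own 75th percentile, so that 0 marks that percentile, and a difference is the LysM-St18flox level minus the wild-type level on that scale. Spots well above background made up 61.5% of the wild-type array and 63.2% of the LysM-St18flox array, with 0 saturated spots on either. The 75th percentile of the signal was 917 on the wild-type and 1657 on the LysM-St18flox macrophage array. Spots of the same probe gave an SD of 0.056 for a difference, which is an error of measurement alone and says nothing of how cultures vary. All 19 macrophage identity genes were well above background on both arrays, with 2 at least 2-fold higher (Adgre4 and Mertk), 1 lower (Cx3cr1) and a median difference of 0.04, which ran from 0.02 to 0.29 over 10 versions of the values. Adgre1 (F4/80) stood at 6.48 and 6.46, Cd68 at 7.27 and 7.38, and Csf1r, the M-CSF receptor, at 7.96 and 7.58.

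St18 had a level of -0.23 in wild-type and -2.03 in LysM-St18flox macrophages, a difference of -1.80 or 3.48-fold, on its bright probe. In osteoclasts the same probe stood at 1.02 and 0.59, a difference of -0.43. The second St18 probe was well above background on the LysM-St18flox osteoclast array alone, with a difference there of 0.29 as a bound. The sources used here do not place the bright probe inside or outside the floxed stretch, so it shows the level of that part of the transcript only. The relatives Myt1 and Myt1l were not well above background on any of the 4 arrays. Lyz2, the lysozyme gene at the Cre locus, had levels of 5.85 and 5.80, and the neighbouring Lyz1 5.17 and 4.78. The Y-linked genes Ddx3y, Kdm5d, Eif2s3y and Uty were not well above background on any array. The X-linked Xist was well above background on all 4 arrays. It stood at -0.35 in wild-type and -0.92 in LysM-St18flox macrophages, and at -0.60 and -1.06 in osteoclasts.

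Markers of other marrow cells were measured beside these. Of 15 neutrophil genes 14 were measured, with 0 past 2-fold and a summed level (in multiples of the 75th percentile) of 147 in wild-type and 105 in LysM-St18flox macrophages. Csf3r (6.93 and 6.24) made up most of that sum, and the median difference of the list was 0.31, with 8 genes above 0. For B cells the summed level was 0.92 and 1.18 and the median difference -0.30. Cd79b (-0.61 and -0.06), Ms4a1, Pax5 and Vpreb1 were measured, and the other 7 of 11, Cd79a and Ebf1 among them, were not well above background. T and NK cell genes summed to 12.0 and 8.38 with a median difference of -0.06, and Il7r (3.29 and 2.51) made up most of the sum. Cd4 (0.56 and 0.94), Cd3e (-0.85 and -0.89), Cd3d and Lck were well above background on both arrays, and Cd3g, Cd8a, Ncr1 and Klrb1c on neither. Erythroid genes summed to 0.38 and 0.61, with Alas2 and Klf1 not well above background, and mast cell and basophil genes to 0.24 and 0.23, with Kit and Cpa3 not well above background. Of 4 erythroid genes measured, Epor was 3.51-fold higher and Slc4a1 at least 2.28-fold higher, and the list's median difference was 0.65. Prss34, of the mast cell and basophil list, was at least 2.67-fold higher, and the median of its 4 measured genes was -0.11. Stromal genes summed to 1.08 and 0.93, with Pdgfra and Col3a1 not well above background, and endothelial genes to 4.03 and 4.79, with Tek and Emcn not well above background. Vwf, with a difference of 0.51, carried the rise of the endothelial sum, and the list's median difference was -0.40. Megakaryocyte genes summed to 139 and 153 and dendritic cell genes to 152 and 110. Of 11 dendritic cell genes measured, 2 were at least 2-fold lower, Cd207 by 6.54-fold and Xcr1 by at least 3.53-fold, and 0 higher. The median difference of the dendritic cell list was -0.13. Pf4, which macrophages also make, stood at 7.07 and 7.19, and Siglech at 6.83 and 6.14. The part of these cells in the differences was not tested.

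Over all genes the median difference was 0.00, with an interquartile range from -0.29 to 0.27. At least 2-fold higher in LysM-St18flox macrophages were 520 genes, 3.39% of those measured, and at least 2-fold lower were 445 genes, 2.9%. Counts past 2-fold in any gene list are to be read beside these shares. Among the higher genes, 432 were measured on both arrays and 88 were bounds, and among the lower genes 352 and 93. At least 4-fold higher were 71 genes and 4-fold lower 51, and 79% of genes differed by less than 1.5-fold. When genes on both arrays were divided into 4 equal bins by level, the share past 2-fold was 9.63% in the dimmest bin and 2.06% in the brightest, where the median difference was -0.11. Of 15319 genes, 417 passed 2-fold in all of 3 versions of the values with every measured probe on the same side, 210 higher and 207 lower. A gene with 1 measured probe meets the condition on probes by default. Where a gene past 2-fold had a second measured probe (195 genes), the second probe lay on the same side of 0 for 177 and passed 2-fold for 94.

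**Figure D1:**
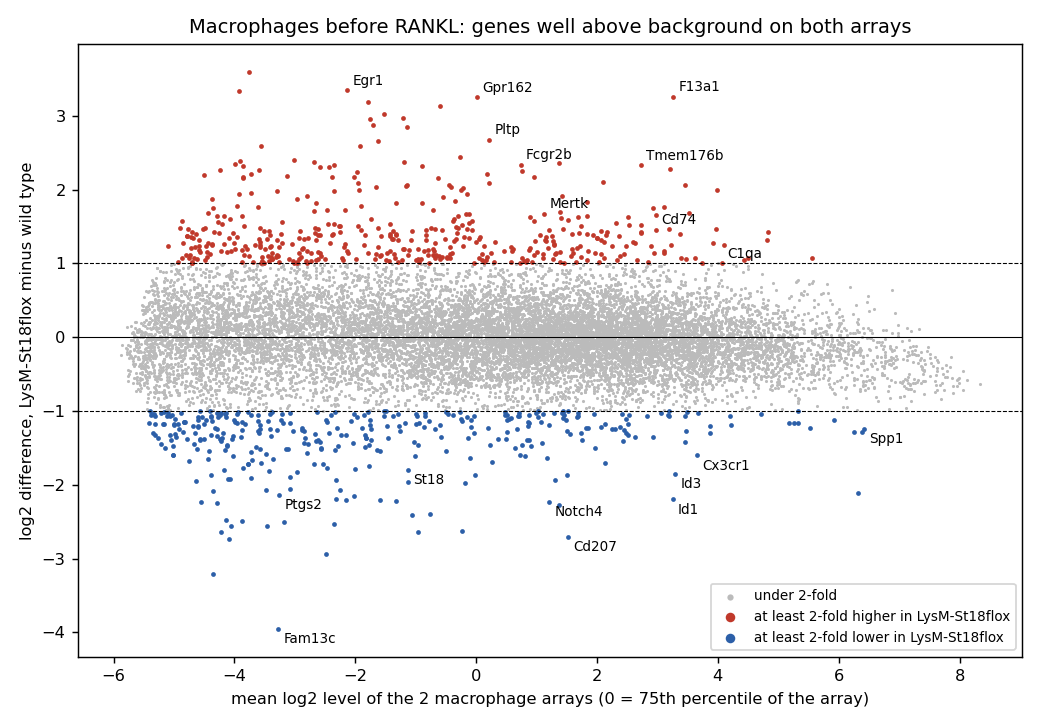
Each point is 1 gene well above background on both macrophage arrays. The x axis is its mean log2 level and the y axis the log2 difference, LysM-St18flox minus wild type. Red points are 2-fold or more above wild type and blue points 2-fold or more below it. The scatter is widest at low levels, where 9.63% of genes passed 2-fold, and narrows at high levels, where 2.06% did.

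The genes ranked by size here were measured on both arrays and past 2-fold in all 3 versions of the values. Every measured probe of such a gene lay on the same side, which holds by default where only 1 probe was measured. Egr1, Adam19 and Fam13c had 1 measured probe each, while F13a1, Tmem176b and Akap6 had 2. Among the genes ranked by size the largest difference upward was in Egr1, an immediate early transcription factor. Its level was -3.82 in wild-type and -0.47 in LysM-St18flox macrophages, 10.2-fold higher. The osteoclast arrays gave -2.48 and -2.14, so that both lay between the macrophage values. Adam19, a membrane metalloprotease, stood at -3.39 and -0.20, 9.15-fold higher. F13a1, the transglutaminase subunit of coagulation factor XIII, was 9.58-fold higher, from 1.62 to 4.89.

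Several of the highest differences were in membrane proteins. Tmem176a and Tmem176b, neighbouring genes of related membrane proteins found in dendritic cells and macrophages, were both higher. Tmem176a went from -3.03 to -0.00, 8.15-fold, and Tmem176b from 1.56 to 3.89, 5.02-fold. Gprc5c, an orphan G protein-coupled receptor, went from -2.69 to 0.28, 7.85-fold. Abca9, a lipid-regulated ABC transporter, went from -2.58 to 0.28, 7.23-fold, and its osteoclast levels of -4.23 and -4.19 lay below both macrophage values. For these 4 genes the difference in osteoclasts was between 0.04 and 0.64.

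Enzymes and signalling proteins made up much of the remainder. Nat8l, which makes N-acetylaspartate, was 7.73-fold higher (-3.23 and -0.28). Kmo, an enzyme of tryptophan breakdown, was 5.26-fold higher (-4.21 and -1.81). Peli2, a ubiquitin ligase of Toll-like receptor signalling, was 5.18-fold higher (-2.38 and -0.00). Arl5c, a small GTPase, was 5.12-fold higher (0.19 and 2.55). Klk1b11, a kallikrein with near-identical relatives that a probe may not separate, was 7.34-fold higher (-3.14 and -0.26). Fam43a was 5.02-fold higher (-3.52 and -1.19), and the long noncoding RNA 2610035D17Rik 6.05-fold (-4.85 and -2.26).

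By the same rule, the largest difference in the other direction was in Fam13c, at -1.31 in wild-type and -5.26 in LysM-St18flox macrophages, 15.5-fold lower. It was lower in LysM-St18flox osteoclasts too, at -4.10 against -1.03. Fosl1, an AP-1 subunit, was 5.67-fold lower (-1.92 and -4.43), and its osteoclast levels were -1.28 and -2.67. Tmeff1, a membrane protein with follistatin domains, was 6.22-fold lower (0.35 and -2.29).

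Regulators of signalling were among the lowest as well. Akap6, which anchors protein kinase A, was 6.26-fold lower (-2.91 and -5.55). Rgs16, which ends G protein signals, was 4.7-fold lower (-3.43 and -5.66), and Tiam2, which activates Rac, 4.59-fold lower (-1.22 and -3.42). All 3 had higher levels in both osteoclast arrays than in either macrophage array. Rnf183, a ubiquitin ligase, was 5.81-fold lower (-1.08 and -3.61). Dlx2, a homeobox gene, was 5.33-fold lower (0.15 and -2.26), and Tmem163, a zinc transporter, 5.57-fold lower (-2.91 and -5.38). Kifc1, a mitotic kinesin, was 4.64-fold lower (-1.05 and -3.26).

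The remaining genes named by size were Hao1, glycolate oxidase, 4.75-fold lower (-3.16 and -5.41), Olfml3, a secreted glycoprotein, 4.65-fold lower (-0.21 and -2.43), and the noncoding 1700086L19Rik, 5.89-fold lower (-2.19 and -4.75). Snora47, an RNA that guides pseudouridylation, was 4.61-fold lower (-0.49 and -2.70). Apoc1, an apolipoprotein, was on the other side, 5.18-fold higher (-3.87 and -1.50). The genes named by size all kept 2-fold after another background correction and in the authors' deposited table, because the rule required it. The size of the differences depended on that correction (normexp), which gave 2.52 in place of 3.35 for Egr1 and -2.84 in place of -3.95 for Fam13c.

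**Figure D2:**
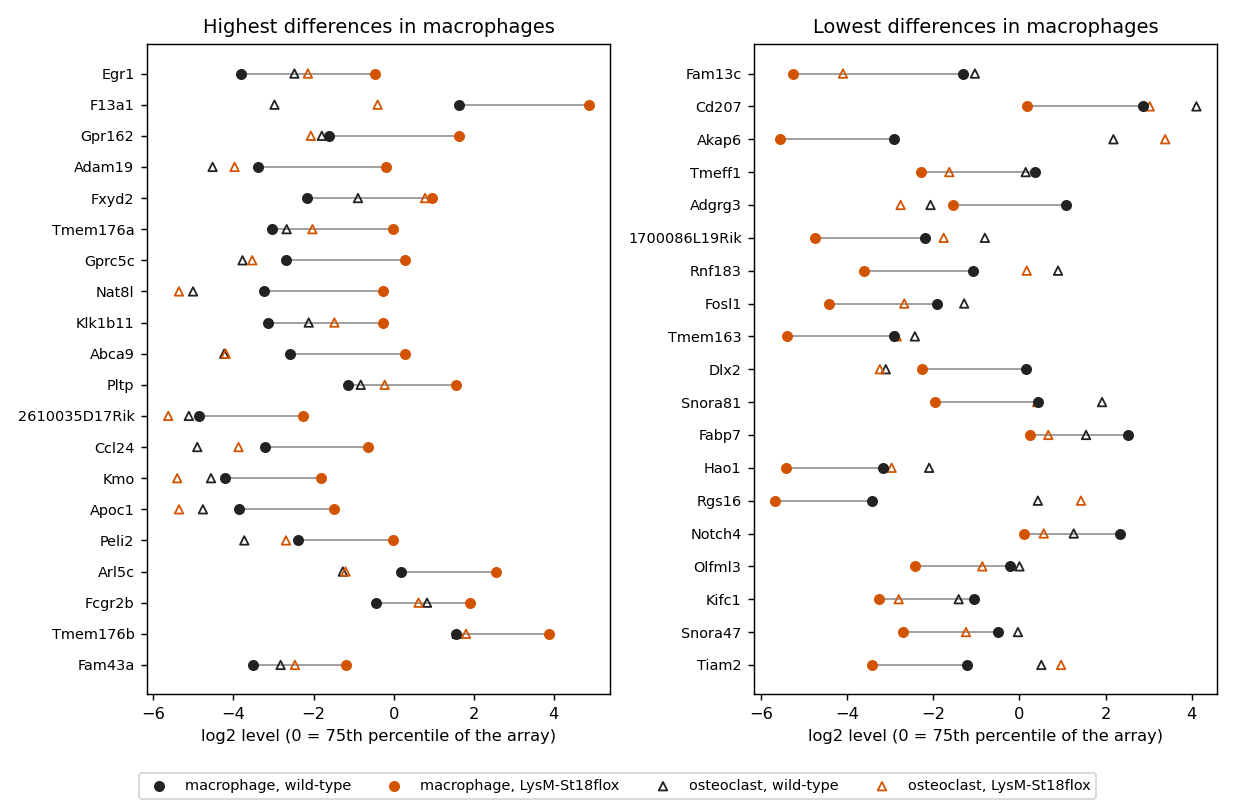
The x axis is the log2 level relative to each array's 75th percentile, and each row is 1 gene, for the genes with the highest (left, 20 genes) and lowest (right, 19 genes) differences in macrophages that are reported here. Filled circles are macrophages and open triangles osteoclasts, black for wild-type and orange for LysM-St18flox, 1 array each. Fam13c is far lower in LysM-St18flox cells of both cell types, while for Egr1 and Gpr162 the osteoclast values lie close together.

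Genes well above background on 1 macrophage array only have a bound in place of a fold, set against the higher of the dim array's lowest usable signal and the dim probe's own signal. Samd4, which encodes an RNA-binding protein, was at least 14-fold higher in LysM-St18flox macrophages, the homeobox gene Hoxc4 at least 13.6-fold and the dynein gene Dnah2 at least 11.1-fold. Zscan4c and 4930593C16Rik were at least 6.83-fold and 6.82-fold higher. Ltbp1, whose product binds latent TGF-beta, was at least 12.6-fold lower. Dusp15, a phosphatase, was at least 8.65-fold lower, and Chmp4c, an ESCRT-III subunit, at least 7.73-fold. The uncharacterised transcripts 4930595M18Rik and Gm36284 were at least 8.71-fold and 8.43-fold lower. These bounds depend on the background correction, and with normexp the differences were 1.94 for Samd4 and Hoxc4, 1.55 for Dnah2, 1.26 for Zscan4c and -2.36 for Ltbp1.

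Several genes of phagocytic, tissue-resident macrophages were higher in LysM-St18flox macrophages. Of 16 such genes 13 were measured, and 6 were at least 2-fold higher and 0 lower, against 3.39% and 2.9% of all genes, and the list's median was 0.60 against 0.00. The resident macrophage markers Timd4, Lyve1 and Clec4f were not well above background on either macrophage array. Besides F13a1, Spic, the transcription factor of iron-recycling macrophages, went from -2.99 to -0.91, 4.25-fold. Cbr2, a carbonyl reductase, went from 2.98 to 4.98, 3.99-fold. The sialic acid receptor Siglec1 went from 1.02 to 2.12, 2.15-fold, and the mannose receptor Mrc1 from 4.12 to 5.54, 2.68-fold. Folr2, a folate receptor of the same cells, stood at 4.43 and 4.34. Cd163 stood at -1.49 and -1.14, Vcam1 at -2.96 and -2.69, and Marco at 3.98 and 4.29. Vsig4, a complement receptor, was well above background in wild-type macrophages alone. In osteoclasts the median of the list was -0.24.

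The listed genes of receptors for the Fc part of IgG, a signalling chain and an Fc receptor-like gene among them, all had differences above 0. Of 7 genes measured, 3 were at least 2-fold higher and 0 lower (3.39% and 2.9% of all genes), and the median was 0.67. The inhibitory receptor Fcgr2b went from -0.43 to 1.91, 5.06-fold. Fcrls, an Fc receptor-like scavenger receptor, went from 1.96 to 3.49, 2.88-fold, and Fcgrt, the neonatal receptor that recycles IgG, from 1.51 to 2.64, 2.19-fold. The activating receptors differed by less, with Fcgr1 at 2.46 and 2.76, Fcgr3 at 3.71 and 4.24, and Fcgr4 at 1.07 and 1.74. Their shared signalling chain Fcer1g stood at 7.16 and 7.24. In osteoclasts the 7 genes had a median of -0.21 and 0 passed 2-fold.

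C-type lectins, which recognise sugars on microbes and dead cells, held genes with large differences in both directions. Of 15 measured, 5 were higher and 1 lower past 2-fold (3.39% and 2.9% of all genes). The median was 0.16, and 0.004 with normexp background correction. Clec4a1, of the Clec4 cluster, went from 2.08 to 4.35, 4.83-fold. Its relatives Clec4n (dectin-2) and Clec4a3 went from 2.67 to 4.36 and from 0.74 to 2.32, 3.21-fold and 3-fold. Clec10a went from 0.98 to 2.48, 2.84-fold. Other members of the same cluster stayed under 1.5-fold, with Clec4d at 6.89 and 6.64 and Clec4e (mincle) at 3.27 and 3.26. Cd207 (langerin) was the member that was lower, at 2.88 and 0.17, 6.54-fold.

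Of 19 complement and coagulation genes measured, 5 were higher and 2 lower past 2-fold (3.39% and 2.9% of all genes), with a median of 0.53. C2 and Cfb, neighbouring genes for the proteases of the classical and the alternative pathway, went from -4.83 to -2.62 and from -3.60 to -2.26, 4.62-fold and 2.54-fold. C3, on which both pathways act, went from 2.94 to 4.00, 2.08-fold. The 3 chains of C1q, which opens the classical pathway, were all above 0 in difference. C1qa went from 3.57 to 4.58, 2.01-fold, while C1qb (4.93 and 5.69) and C1qc (5.44 and 6.16) stayed under 2-fold. Genes of plasmin formation lay on the other side. The urokinase receptor Plaur was 2.04-fold lower (4.19 and 3.16), and urokinase itself, Plau, stood at 4.28 and 3.41. In osteoclasts the list's median was -0.44.

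Uptake of dead cells and scavenging differed gene by gene. Mertk, a receptor tyrosine kinase for dead cells, went from 0.29 to 1.96, 3.18-fold higher. Its relative Tyro3 was 2.3-fold lower (-4.09 and -5.29), and Axl stood at 2.50 and 2.10. The integrin chain Itgav was 2.28-fold lower (4.82 and 3.63). Over 14 efferocytosis genes, 2 were higher and 2 lower past 2-fold. None of 10 scavenger receptors passed 2-fold, with Cd36 at 4.24 and 4.13, Msr1 at 3.79 and 3.16 and Marco at 3.98 and 4.29.

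Genes that present antigen to CD4 T cells were higher in part. Of 12 MHC class II pathway genes measured, 4 were at least 2-fold higher and 0 lower (3.39% and 2.9% of all genes), with a median of 0.39, which ran from 0.17 to 0.87 over 10 versions of the values. Ciita, the coactivator that switches the pathway on, went from -1.74 to -0.43, 2.49-fold. The class II chains H2-Ab1 and H2-Eb1 went from 2.34 to 3.36 and from 1.64 to 2.87, 2.03-fold and 2.35-fold, and H2-Aa stood at -0.57 and 0.30. The invariant chain Cd74 went from 2.25 to 3.71, 2.75-fold. The peptide exchange factors H2-DMa and H2-DMb1 and the protease Ctss stayed under 1.5-fold. The 10 genes measured for costimulation and coinhibition also counted Hvcn1, which encodes a proton channel. Among the 10, Cd86 was 2.91-fold higher (-2.20 and -0.66) and Cd274 (PD-L1) 2.57-fold higher (-0.62 and 0.74). Cd276 was 2.36-fold lower (0.82 and -0.42), and Cd80 stood at 2.90 and 3.21. In osteoclasts the class II list had a median of 0.09.

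MHC class I genes stayed closer to 0. None of 14 passed 2-fold, 12 had a difference above 0, and the median was 0.29. B2m, the shared light chain, stood at 6.78 and 6.76, the heavy chain H2-K1 at 6.77 and 7.10, and the peptide transporter Tap1 at 1.85 and 2.43.

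Interferon target genes lay mostly above 0 in difference. Of 20 type I interferon response genes measured, 3 were at least 2-fold higher and 0 lower (3.39% and 2.9% of all genes). Among these 20, 18 had a difference above 0, and the median was 0.48. Ifit1, which binds viral RNA, went from 0.23 to 1.30, 2.1-fold. Zbp1, a nucleic acid sensor, went from 0.01 to 1.20, 2.28-fold, and Ifi44 from -2.05 to -0.72, 2.52-fold. Ifit3 stood at 1.66 and 2.63, Isg15 at 4.20 and 4.38, and the regulator Irf7 at 5.20 and 5.33. Of 10 interferon gamma target genes, mostly GTPases that attack vacuoles of microbes, 3 were at least 2-fold higher (3.39% of all genes). All 10 had a difference above 0, and the median was 0.57. Gbp7 went from -2.12 to -0.74, 2.59-fold, Iigp1 from -0.88 to 0.47, 2.56-fold, and Gbp6 from -4.76 to -3.42, 2.54-fold. In osteoclasts the medians of these lists were 0.74 and 0.42.

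Members of the interferon and class II lists share known promoter elements, so 4 and 2 of their promoters are shown. Promoter stretches were taken from RefSeq on assembly GRCm38.p6, of the 250 bases before each start, and 12167 of the 15319 measured genes had an entry. The letters GAAANNGAA, the core of the element bound by interferon-activated factors, were found on either strand in 8 of 15 type I interferon promoters and in 7 of 8 of the interferon gamma list, against 7.59% of all measured genes. They were also found in 4 of 12 ribosomal protein and 3 of 12 MHC class I promoters, and in 0 of 21 DNA replication promoters. The letters CCAAT, which are part of the class II promoter, were found in 7 of 9 class II promoters, against 40.1%. CCAAT was not particular to class II, with 9 of 12 class I and 14 of 21 DNA replication promoters holding it. It was rarer in ribosome biogenesis promoters, with 2 of 13. Capitals mark the motif on either strand, and each stretch is written 5′ to 3′ toward the gene's start.
Ifit1, chr19:34640749-34640828, plus strand: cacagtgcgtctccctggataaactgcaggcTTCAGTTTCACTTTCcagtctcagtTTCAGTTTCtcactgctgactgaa
Ifit3, chr19:34583371-34583450, plus strand: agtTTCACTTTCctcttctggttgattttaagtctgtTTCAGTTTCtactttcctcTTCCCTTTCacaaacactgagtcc
Gbp2, chr3:142620549-142620628, plus strand: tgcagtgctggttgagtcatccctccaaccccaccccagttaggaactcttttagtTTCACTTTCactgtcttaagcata
Gbp7, chr3:142530228-142530307, plus strand: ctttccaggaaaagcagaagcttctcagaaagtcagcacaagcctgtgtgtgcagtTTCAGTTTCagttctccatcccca
H2-Aa, chr17:34287852-34287931, minus strand: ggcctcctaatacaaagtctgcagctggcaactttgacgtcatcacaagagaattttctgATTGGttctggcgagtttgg
H2-Eb1, chr17:34305772-34305851, plus strand: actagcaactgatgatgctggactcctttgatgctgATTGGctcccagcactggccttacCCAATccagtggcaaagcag
A match of letters is a description of the sequence and was not measured as a binding site. Among all genes at least 2-fold higher, 10.1% of promoters held GAAANNGAA and 41.5% held CCAAT.

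Of 20 Toll-like receptors and adaptors, 3 were at least 2-fold higher and 0 lower (3.39% and 2.9% of all genes), with a median of 0.21. Tlr7, a receptor for single-stranded RNA, went from 1.87 to 3.11, 2.36-fold, Tlr1 from 0.56 to 1.63, 2.1-fold, and the adaptor Ticam2 from -4.27 to -2.93, 2.52-fold. Tlr4, the receptor for lipopolysaccharide, stood at 1.21 and 1.36. The inflammatory list held cytokine genes and also the enzymes Ptgs2 and Nos2. Of its 11 genes measured, 0 were at least 2-fold higher and 1 lower, with a median of -0.21. The gene that was lower was Ptgs2, the inducible cyclooxygenase, 4.4-fold (-2.19 and -4.33), so none of the cytokine genes passed 2-fold. Tnf stood at 2.11 and 1.91 and Il10 at -1.14 and -1.54.

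Chemokines and their receptors differed in both directions, and the sign of the list medians changed with the processing. Of 17 chemokines, Ccl24 (eotaxin-2) was 6-fold higher (-3.21 and -0.63) and Ccl8 2.11-fold higher (-3.94 and -2.86). Ccl2, which draws monocytes, was 2.45-fold lower (6.90 and 5.61), and Cxcl14 2.66-fold lower (3.13 and 1.72). The 12 receptors measured included C5ar1 and C3ar1, for complement fragments, and Fpr1 and Fpr2, for formyl peptides. Of the 12, Cxcr4 was 3.29-fold higher (-1.58 and 0.14) and Ccrl2 2.78-fold (-1.48 and -0.00). Cx3cr1, the fractalkine receptor, was 3.04-fold lower (4.46 and 2.85), and Ccr2 stood at 0.16 and 0.76. Of 12 monocyte genes, 0 were higher and 1 lower past 2-fold, Treml4 by 2.78-fold (1.65 and 0.17), while Ly6c2 stood at 5.51 and 5.20.

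Several lipid export genes were higher. Of 20 genes of lipid efflux and storage, 5 were at least 2-fold higher and 1 lower (3.39% and 2.9% of all genes). The median was 0.20. Abca1 and Abcg1, the pumps that load cholesterol onto lipoproteins, went from 0.08 to 1.71 and from 0.48 to 1.93, 3.08-fold and 2.74-fold. Pltp, which moves phospholipid between lipoproteins, went from -1.13 to 1.55, 6.4-fold, and Apoc2 from 1.95 to 3.24, 2.45-fold. Scd2, a fatty acid desaturase, went from 0.62 to 1.92, 2.46-fold. Apoe stood at 6.56 and 7.21. The gene that was lower was Plin2, the coat protein of lipid droplets, 2.18-fold (6.49 and 5.36). Nr1h3, the sterol-activated receptor that drives several of these genes, stood at 1.77 and 1.48. None of 20 genes of cholesterol synthesis and uptake passed 2-fold, with a median of 0.12, and Hmgcs1 stood at 3.60 and 3.84.

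Among 16 iron and heme genes, Trf, the iron carrier transferrin, was 3.4-fold higher (2.23 and 4.00), and Spic was the other gene past 2-fold. The iron exporter Slc40a1 (ferroportin) stood at 3.51 and 4.51, close to 2-fold, and the ferritin chains Fth1 and Ftl1 at 8.02 and 7.56 and at 8.27 and 7.71. Of 16 genes of the Nrf2 and glutathione system, 0 were higher and 2 lower past 2-fold (3.39% and 2.9% of all genes). The median was -0.51. Slc7a11, which imports cystine, was 2.37-fold lower (-2.95 and -4.20), and Gsta3 2.07-fold lower (3.69 and 2.64). Heme oxygenase, Hmox1, stood at 6.80 and 5.81, just under 2-fold. The osteoclast median of this list was -0.56.

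The listed DNA replication and mitosis genes all had differences below 0, most of them under 2-fold. Of 26 DNA replication genes, 2 were at least 2-fold lower and 0 higher (2.9% and 3.39% of all genes). None of the 26 had a difference above 0, and the median was -0.69. Cdt1, which licenses origins, was 2.31-fold lower (4.47 and 3.26), and Tyms, thymidylate synthase, 2.1-fold lower (3.36 and 2.29). The helicase subunits Mcm2 to Mcm7 lay between -0.84 and -0.36 in difference. Of 23 mitosis genes 0 passed 2-fold, 0 had a difference above 0, and the median was -0.65. Mki67 stood at 5.18 and 4.58, Cdk1 at 2.36 and 1.63, and Aurka at 3.99 and 3.04. In osteoclasts the medians of these lists were -0.52 and -0.44.

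Of 19 regulators of the G1 phase, 1 was higher and 2 lower past 2-fold (3.39% and 2.9% of all genes). The median was -0.26. Myc was 2.21-fold lower (1.42 and 0.28) and cyclin E2, Ccne2, 2.02-fold lower (-3.43 and -4.44), while cyclin D1, Ccnd1, stood at 6.11 and 5.17. Cdkn1b, which encodes the cell cycle inhibitor p27, was 2.3-fold higher (1.07 and 2.27). The inhibitor Cdkn1a stood at 4.43 and 4.54. Of 17 ribosome biogenesis genes, 2 were at least 2-fold lower and 0 higher (2.9% and 3.39% of all genes), with a median of -0.70. Polr1b, a subunit of RNA polymerase I, stood at 0.24 and -0.77, 2.01-fold lower, and Dkc1, the pseudouridine synthase, at -0.98 and -1.99. The nucleolar proteins Nop58, Nop56 and Fbl stood at 2.55 and 1.56, at 4.07 and 3.17, and at 5.22 and 4.52. The osteoclast median of that list was -0.14.

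Promoters of proliferation genes are shown because the members lay together. The letters GCGGGAA, a form of the E2F site, were found in 6 of 21 DNA replication promoters, against 7.22% of measured genes. The letters TTTGAA, the core of the cell cycle homology region, were found in 9 of 19 mitosis promoters, against 13.8%, and CCAAT in 17 of 19. TTTGAA was also found in 4 of 8 promoters of the interferon gamma list, and in 17.2% of promoters of genes at least 2-fold lower and 17.4% of those higher. Capitals mark GCGGGAA in Uhrf1 and Prim1 and TTTGAA in Ube2c and Cdk1, on either strand.
Uhrf1, chr17:56303231-56303310, plus strand: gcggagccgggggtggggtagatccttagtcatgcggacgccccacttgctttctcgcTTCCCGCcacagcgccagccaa
Prim1, chr10:128015135-128015214, plus strand: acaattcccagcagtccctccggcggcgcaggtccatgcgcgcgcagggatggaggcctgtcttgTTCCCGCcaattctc
Ube2c, chr2:164769841-164769920, plus strand: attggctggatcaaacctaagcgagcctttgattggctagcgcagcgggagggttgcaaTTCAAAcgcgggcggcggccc
Cdk1, chr10:69352913-69352992, minus strand: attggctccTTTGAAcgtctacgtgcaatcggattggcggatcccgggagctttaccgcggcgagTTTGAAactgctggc
Uhrf1 stood at 3.49 in wild-type and 2.75 in LysM-St18flox macrophages, and Prim1 at 2.45 and 1.77. Ube2c stood at 3.75 and 3.10. The Myc-type E box, CACGTG, was found in 1 of 13 ribosome biogenesis promoters, against 9.19% of measured genes.

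Housekeeping lists of bright genes lay slightly below 0 as well, at -0.29 for 20 ribosomal protein genes and -0.23 for 14 reference genes. Both medians changed side in 2 of 10 versions of the values, and the brightest bin of genes had a median of -0.11. Of 24 respiratory chain genes 0 passed 2-fold, with a median of -0.31 in macrophages and 0.39 in osteoclasts. Of 24 genes of glycolysis and hypoxia, Egln3, an oxygen sensor, was 2.64-fold higher (-2.13 and -0.73) and Ankrd37 2.08-fold higher (0.75 and 1.81). The enzymes Ldha and Pgk1 stood at 7.41 and 6.74 and at 7.80 and 7.03. None of 20 lysosome genes passed 2-fold. In the unfolded protein response, Asns, asparagine synthetase, was 2.32-fold lower (2.99 and 1.78), and the chaperone Hspa5 stood at 6.11 and 5.86. Apart from Egr1, Ier3 was the immediate early gene past 2-fold, 2.98-fold higher (0.16 and 1.74), while Fos stood at 3.46 and 2.83 and Jun at 4.23 and 4.32.

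**Figure D3:**
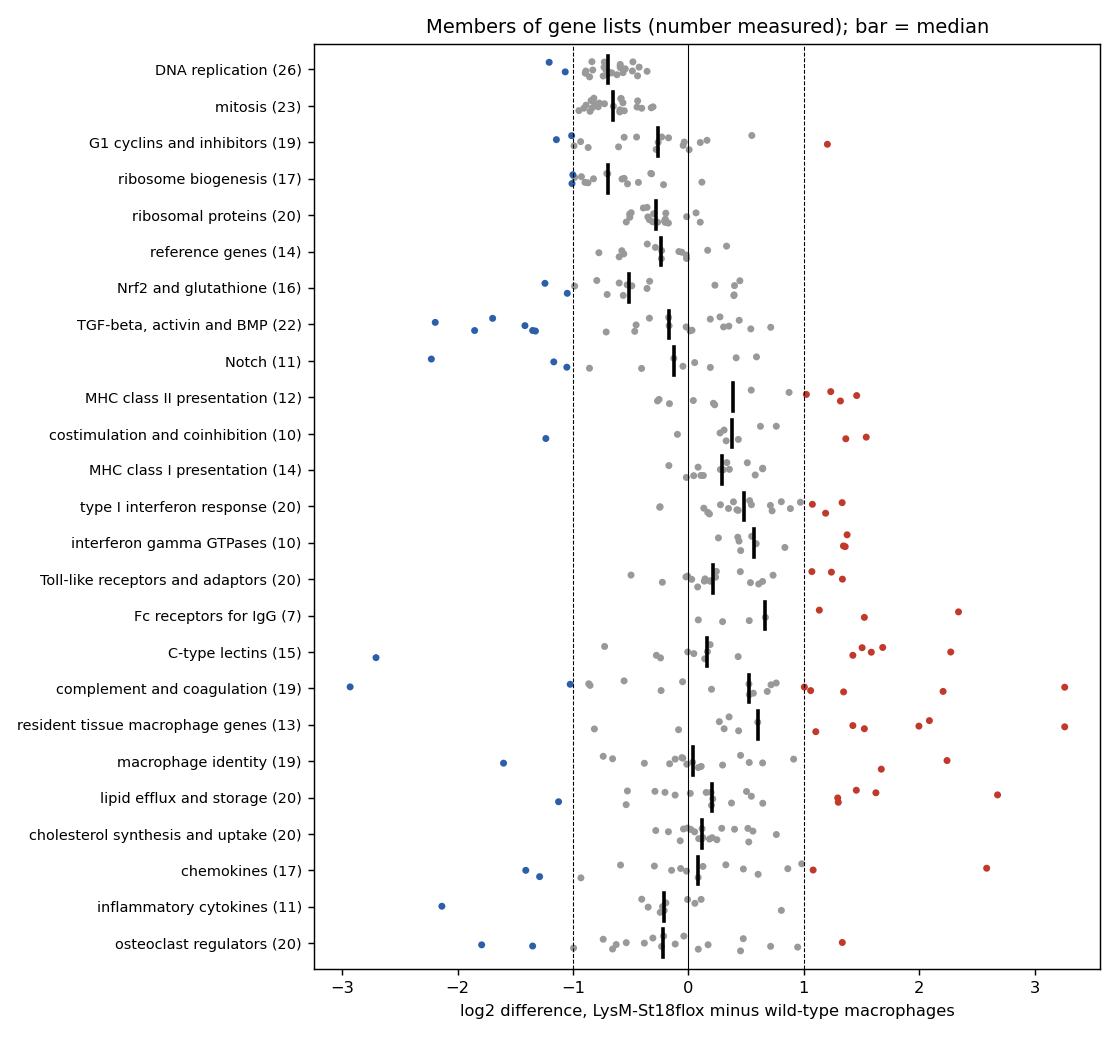
Each point is 1 measured member of a gene list, placed on the x axis by its log2 difference, LysM-St18flox minus wild-type macrophages, with red and blue beyond 2-fold and a black bar at the list's median. DNA replication and mitosis genes all lie below 0, and Fc receptors and interferon gamma genes all lie above 0. The medians of ribosomal proteins, reference genes, chemokines and osteoclast regulators changed side in 2 of 10 versions of the values each.

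Several targets of TGF-beta and BMP signalling were lower. Of 22 genes of these pathways, 6 were at least 2-fold lower and 0 higher, against 2.9% lower among all genes, with a median of -0.17. All 6 are targets or feedback inhibitors, while the target Tgfbi stood at 6.61 and 6.44. Id1, Id2 and Id3, which block basic helix-loop-helix factors, stood at 4.35 and 2.15, at 3.60 and 2.25 and at 4.22 and 2.37, 4.58-fold, 2.55-fold and 3.61-fold lower. The inhibitory Smads, Smad6 and Smad7, stood at 1.11 and -0.58 and at -0.32 and -1.74, 3.24-fold and 2.67-fold lower. Skil, a corepressor of Smads, was 2.51-fold lower (3.18 and 1.85). Ligands, receptors and signalling Smads stayed under 2-fold, with Tgfb1 at 2.67 and 3.21, Tgfbr2 at 3.10 and 3.82 and Smad4 at 2.44 and 2.74. In osteoclasts Id1 had a difference of -1.04, Id3 of -0.83 and Smad7 of 0.29.

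Of 11 Notch pathway genes measured, 3 were at least 2-fold lower and 0 higher (2.9% and 3.39% of all genes), with a median of -0.13. Notch4 was 4.69-fold lower (2.33 and 0.10), Notch1 2.08-fold (0.14 and -0.91) and the ligand Jag2 2.25-fold (-2.62 and -3.79). The receptors Notch2 and Notch3 stood at 1.58 and 2.17 and at 0.49 and 0.36.

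Angiogenic genes differed in both directions. Vegfa was 5.46-fold higher on its bright probe (-1.49 and 0.96), and 2 further probes gave differences of 2.07 and 2.36, but the remaining probe gave -1.36. Pdgfc was 3.51-fold higher (-1.81 and 0.00) and Thbs1, an inhibitor of vessel growth, 4.81-fold higher (-4.73 and -2.46). Flt1, a VEGF receptor, was 2.42-fold lower (2.15 and 0.87) and Pdgfa 2.46-fold lower (3.13 and 1.83). Spp1 (osteopontin) was 2.36-fold lower (7.04 and 5.80).

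Osteoclast genes before RANKL had small differences with some exceptions. Of 20 osteoclast regulators, 1 was at least 2-fold higher and 2 lower (3.39% and 2.9% of all genes). The median was -0.22, and its sign changed in 2 of 10 versions of the values. Dcstamp, needed for the fusion of precursors, was 3.46-fold lower (-1.10 and -2.90), and its partner Ocstamp stood at -1.79 and -2.78, just under 2-fold. Prdm1, which represses inhibitors of osteoclast formation, was 2.52-fold higher (-1.18 and 0.16). The RANKL receptor Tnfrsf11a stood at 3.68 and 3.46, and the master regulator Nfatc1 differed by 0.71. Of 11 resorption genes, Itgav was the gene past 2-fold. Acp5 stood at 2.27 and 1.86 and Ctsk at -0.47 and -0.82.

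The same genotypes were also compared after RANKL, on the pair of osteoclast arrays. There, 548 genes (3.65%) were at least 2-fold higher in LysM-St18flox cells and 570 (3.8%) lower, of 14996 measured. The sources used here do not say whether both cell types came from the same mice. Among 14503 genes measured in both comparisons, 68 were higher past 2-fold in both, which is 15.2% of the macrophage list and 15.6% of the osteoclast list. Lower in both were 101 genes, 26.7% and 18.9%. Past 2-fold in opposite directions were 9 genes that were higher in macrophages and 19 that were lower there. The genes higher in macrophages had a median osteoclast difference of 0.26, and those lower in macrophages one of -0.60. F13a1 was higher in both, with differences of 3.26 and 2.58, as was Adgre4 (2.24 and 1.99). Fcgr2b, Mertk, Mrc1 and Cxcr4 were higher past 2-fold in macrophages and had osteoclast differences of -0.21, -0.26, -0.08 and -0.60. The difference between cell types was not tested, since each group had 1 array.

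**Figure D4:**
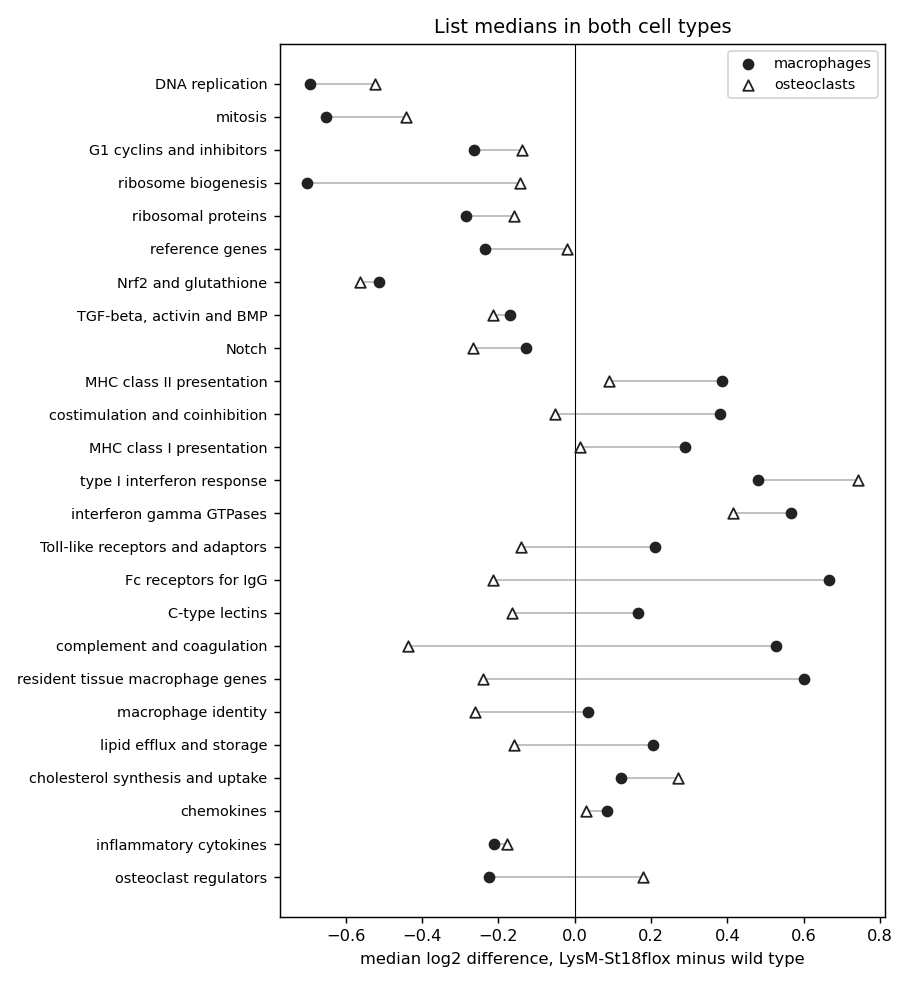
Each row is a gene list, and the x axis is the median log2 difference of its members, LysM-St18flox minus wild type, in macrophages (filled circles) and osteoclasts (open triangles). DNA replication lies below 0 in both, at -0.69 and -0.52, and type I interferon genes above 0 in both, at 0.48 and 0.74. Complement, Fc receptor and resident macrophage lists lie above 0 in macrophages and below 0 in osteoclasts. In macrophages the medians of chemokines, ribosomal proteins, reference genes and osteoclast regulators changed side in 2 of 10 versions of the values.

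The neighbours of both altered loci were described too. The 17 measured neighbours of St18, up to 10 on each side, had differences from -0.97 to 0.82 with a median of 0.01, and 0 passed 2-fold. Of 20 measured neighbours of Lyz2, 1 passed 2-fold, the uncharacterised 4933411E08Rik at -1.30, and the median was 0.02.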

How the data were processed

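RNA of 4 cultures was measured on 4 one-colour Agilent arrays, which the submitters' processing notes say were read with version 11.0.1.1 of Agilent Feature Extraction. Per the file headers, the deposited scanner output holds for each spot an intensity after background subtraction within its array, and flags for spots well above background, saturated or outlying. A second file from the authors holds log2 values of 30909 probes. Its sorted columns match between arrays within 0.001, and the sources used here do not say how it was made.

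Processed intensities were divided by each array's 75th percentile over non-control spots, put on the log2 scale and averaged over the spots of a probe. Outlying spots were left out. Probes were named through RefSeq accessions of assembly GRCm38.p6, and the brightest probe stood for a gene. A gene counted as changed at 2-fold (1 on the log2 scale). The dim side of a bound is the higher of the array's lowest signal well above background and the probe's own. The 3 versions of the values are these, normexp-corrected intensities (limma 3.58.1 in R 4.3.3, offset 50) and the authors' table. The difference script was tested on simulated data. Python 3.11.15 and pandas 2.3.3 were used.

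Named genes were the 20 highest and 20 lowest differences past 2-fold in all 3 versions with all probes on 1 side, the 5 largest bounds each way, list members past 2-fold or needed to show that a list did not move, and genes of the St18 and lysozyme loci. The 52 gene lists, the rules and the genes were chosen with earlier results of these data known. Samples were grouped by genotype and cell type in the labels, and no test was run. A few genes that met these rules are not reported here.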

Additional observations from a re-analysis of the deposited data

Results flagged for a closer look

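Some genes were past 2-fold in opposite directions in the 2 cell types, a difference that was not tested because each group had 1 array. Akap6 had a difference of -2.65 in macrophages and 1.20 in osteoclasts, and Rgs16 -2.23 and 1.0009. Ltbp1 had -3.65, as a bound, and 1.40. Dcstamp, a gene of cell fusion, had -1.79 and 1.18. Cd5, of the T cell list, had -1.08 and 1.01. Probes without a gene name, which entered no comparison, also passed 2-fold in macrophages, with 484 higher and 429 lower of 13502 measured, 6.76%, beside 6.3% of named genes.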

How the results depend on the processing

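The 520 higher and 445 lower genes became 277 and 294 with normexp, 1012 and 1112 with no filter on dim probes, 1595 and 1618 at 1.5-fold, and 140 and 113 at 3-fold. The lower count was 295 in the authors' table, which holds fewer genes, and 252 where the brighter array had to reach a log2 level of -3. The other settings tried for both counts (median centring, quantile normalization, both arrays above background, the median over a gene's probes, and the 75th percentile over probe means, added after seeing the data) stayed within 1.5 times. The share of changed genes that were higher was 53.9%, and 47.6% to 59% over the settings. Only leaving out the filter moved the median of all genes by over 0.1, to -0.15, and the cause of the other moves was not tested. Of 137 genes past 2-fold and named, 113 kept it with normexp, which moved the difference of 118 by more than the error between spots, and 131 with the median over probes. The 137 include the 20 highest and 20 lowest genes, whose rule required 2-fold with normexp. Their part of the 113 was therefore fixed in advance. The median of the angiogenic list turned from 0.37 to -0.26 in the authors' table and -0.17 with no filter. The erythroid list turned from 0.65 to -0.071 with normexp and -0.27 with no filter, and the osteoclast marker list from 0.30 to -0.024 in the authors' table and -0.021 with each of the 3 other filters. The list of DNA replication genes stayed between -0.71 and -0.63 and that of interferon gamma genes between 0.44 and 0.61. No paired analysis was possible because each group has 1 array. Low signals limit precision, and 1 array per group leaves the spread between cultures unknown.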

Other observations

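Both groups in this paragraph were chosen after their values were seen. Of 43 replication-dependent histone genes measured, 0 were higher and 11 lower past 2-fold (3.39% and 2.9% of all genes). The median was -0.69 in macrophages and -0.54 in osteoclasts. In macrophages 7 of the 43 had a difference above 0, mostly H2B genes, with H2bc21 at 0.39, H2bc23 at 0.38 and H2bc4 at 0.14. Osteoclast differences of these 3 genes were 1.52, 0.97 and 0.76. Other H2B genes lay below 0 in macrophages, such as H2bc18 at -1.04 and H2bc7 at -0.54. H4c4 stood at 7.02 in wild-type and 5.73 in LysM-St18flox macrophages, and H1f3 at -0.01 and -1.19. Histone genes of a class are nearly identical, so their probes may not be independent. Noncoding RNAs of the nucleolus and ribosome lay lower too. Of 17 snoRNA, RNase P RNA and ribosomal RNA genes, 9 were at least 2-fold lower and 0 higher (2.9% and 3.39% of all genes). All 17 had a difference below 0, and the median was -1.26 in macrophages and -0.58 in osteoclasts. Rn28s1, the 28S ribosomal RNA, stood at 7.37 and 5.26 and had a difference of -1.95 in osteoclasts. Rpph1, the RNA of RNase P, stood at 4.16 and 2.74. Most of these RNAs, and histone messages, lack a poly(A) tail, and the part of RNA labelling in these values was not tested.

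Other genes outside the lists had large differences. Cp, ceruloplasmin, stood at -5.56 in wild-type and -1.96 in LysM-St18flox macrophages. Gpr34, a lysophospholipid receptor of microglia and macrophages, stood at -2.95 and -0.29. Cyp27a1, a sterol hydroxylase, stood at -5.09 and -2.71, and Hpgd, which breaks down prostaglandins, at -0.37 and 1.88. Ednrb, an endothelin receptor, stood at -2.06 and 0.26. Twist1, a basic helix-loop-helix factor, stood at -2.63 and -5.13, and Uchl1, a deubiquitinase, at 6.14 and 4.91. These were picked after their values were seen, and some did not meet the rule for genes named by size.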
